A study of Mus musculus with 21 samples.

Results

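The mRNA levels of 10 genes of the ATF4 arm of the integrated stress response were followed in mouse embryonic fibroblasts (MEFs) after deletion of *Rtel1*, after stabilization of G4-DNA and after deletion of *Terf1*. The genes were *Atf4*, *Ddit3*, *Asns*, *Trib3*, *Chac1*, *Atf3*, *Psat1*, *Sesn2*, *Ddit4* and *Vldlr*, taken by symbol from a table of 24454 genes. All 10 passed the filter on low counts, as did 13719 genes of the table. RNA from 21 libraries was sequenced, 3 in each of 7 groups, with 32069888 to 51938593 counts per library. Levels are given as CPM, counts scaled to the normalized library size.

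*Rtel1* F/F MEFs carry floxed *Rtel1* alleles and are named Rtel1f/f in the labels. They were infected with an adenovirus expressing GFP (+GFP, the undeleted control) or Cre recombinase (+Cre), and RNA was collected 96 h after infection. A further group, *Rtel1* F/F +GFP +TMPyP4, received the control virus and 10 μM TMPyP4, a porphyrin that binds and stabilizes G4-DNA, for the last 48 h. No vehicle is named for the untreated cells. A derived line was transduced with a pBabe retroviral vector for RTEL1 C1252A/C1255A, a form that does not bind TRF2 and fails in t-loop unwinding. Its +Cre cells keep this form only, and its +GFP cells hold it beside the endogenous gene. *Terf1* F/F cells (Trf1f/f in the labels), in which Cre removes the telomere-binding protein TRF1, were infected in the same way. All 7 groups carry an adenovirus, the line of each genotype is a single cell line, and neither age nor strain is given. The labels call the 3 libraries of a group biological replicates without saying whether they came from separate cultures, so p-values measure the spread between these libraries.

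In the integrated stress response, kinases that sense misfolded protein, amino acid shortage, haem shortage or double-stranded RNA phosphorylate the translation factor eIF2. Protein synthesis as a whole falls, and the mRNA of the transcription factor ATF4, whose short upstream reading frames normally divert ribosomes, is translated more. ATF4 then switches on genes for amino acid synthesis, uptake and tRNA charging, with the factors CHOP (*Ddit3*) and ATF3, and with *Trib3*, *Chac1*, *Sesn2*, *Ddit4* and *Vldlr*. The amount of ATF4 protein is controlled at translation, which the level of the *Atf4* mRNA does not report. The other genes are read as mRNA only, and ATF4 protein was not measured in these libraries. *Atf3*, *Sesn2* and *Ddit4* are also known targets of p53, and *Ddit4* of hypoxia and glucocorticoids.

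ATF4 binds C/EBP-ATF elements, and the letters TGATGNAA, a common form of that element, were searched on both strands of the RefSeq promoter windows (GRCm38.p6, 250 bases before to 50 bases after each annotated start). All 10 genes matched a window, 12 windows in total. The letters were found in 5 windows of 5 genes and in 3.97% of the 32851 windows of all genes. A run of 4 blocks of at least 3 guanines with loops of 1 to 7 bases, the usual quadruplex motif, was found in 3 windows of 3 of the genes and in 18.6% of all windows. The stretches that hold the element before the start are shown because its targets are the subject here, and the quadruplex stretches because TMPyP4 binds such structures. They read 5′ to 3′ on the strand of the gene, with the match in capitals. *Asns* lies at chr6:7693214-7693243 on the minus strand, with the element on the strand of the gene. It begins 23 bases before the RefSeq start, in an exon of a longer GENCODE transcript. *Chac1* lies at chr2:119351023-119351082 on the plus strand, outside any gene. *Atf3* lies at chr1:191183410-191183469 on the minus strand, in an intron of a longer transcript. *Vldlr* lies at chr19:27216809-27216838 on the plus strand, before the second of its 2 RefSeq starts and within an exon of the transcript from the first. In the last 3 the element is on the opposite strand, so that the capitals spell its reverse complement.
Asns: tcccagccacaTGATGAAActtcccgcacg
Chac1: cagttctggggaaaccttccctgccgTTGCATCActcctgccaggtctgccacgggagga
Atf3: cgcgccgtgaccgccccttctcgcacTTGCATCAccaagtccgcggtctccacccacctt
Vldlr: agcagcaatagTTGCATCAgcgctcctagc

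The quadruplex stretches were those of *Trib3* (chr2:152344140-152344182, minus strand, outside any gene), *Atf3* (chr1:191183371-191183416, minus strand, guanines on the opposite strand) and *Psat1* (chr19:15924800-15924844, minus strand, in an intron, before the second of its 2 starts). They did not overlap an element. The element of *Trib3* lies after its start and is not printed. No match to either set of letters was in the windows of *Atf4*, *Ddit3*, *Sesn2* and *Ddit4*. A match describes these letters only and is not a measured binding site or structure.
Trib3 quadruplex motif: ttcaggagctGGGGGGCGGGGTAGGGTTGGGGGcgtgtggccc
Atf3 quadruplex motif: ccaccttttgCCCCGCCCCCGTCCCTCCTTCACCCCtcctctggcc
Psat1 quadruplex motif: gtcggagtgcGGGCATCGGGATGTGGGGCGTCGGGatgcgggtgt

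Several properties of the libraries touch the results. Along the first principal component of the 15 libraries of the *Rtel1* F/F lines, which held 52.4% of the variance, the 3 *Rtel1* F/F +GFP libraries lay at 55.7 to 76.4 and the other 12 at -47.6 to 26.4, so the control libraries stood apart from every other group of that line. The summed level of 10 fibroblast markers was 19193 to 21136 CPM in *Rtel1* F/F +GFP cells, 7341 to 10123 CPM in +Cre cells, 10469 to 14089.8 CPM with TMPyP4 and 8484 to 12341 CPM in C1252A/C1255A +GFP cells, and the part of this difference in the results was not tested. Of the 10 markers, 8 were at 1 CPM or more in every library of the *Rtel1* F/F lines (not *Thy1* and *Lum*) and all 10 in the *Terf1* F/F line. Markers of other cell types were low: the haematopoietic marker *Cd68* was at 1.05 to 6.38 CPM over all libraries, and the summed levels reached 6.58 CPM for 4 haematopoietic, 4.45 for 4 endothelial, 3.45 for 5 epithelial and 0.719 for 3 muscle markers, with *Adgre1* and *Myod1* at 0. In bulk RNA, fewer expressing cells and less RNA per cell cannot be told apart. *Rtel1* fell by 1.07 ± 0.0787 (log2, SE) in *Rtel1* F/F +Cre cells, and *Terf1* fell by 8.79 ± 0.159 in *Terf1* F/F +Cre cells.

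TMPyP4 raised most of the set. All 10 genes were higher in each TMPyP4-treated library than in each *Rtel1* F/F +GFP library, where 57.8% of all tested genes had groups that did not overlap, and 7 of the 10 passed the test (edgeR's quasi-likelihood test, adjusted p of at most 0.01), all upwards, where 30% of all tested genes passed in either direction and 16.6% upwards. The median log2 fold change of the 10 was 0.74, against -0.01 over all 13719 genes tested. *Atf4* stood at 470, 414 and 452 CPM without treatment and at 663, 742 and 752 CPM with TMPyP4. Its lowest treated library was thus above its highest control, with a log2 fold change of 0.69 ± 0.0755 (SE; adjusted p = 1.91e-06). *Asns*, which makes asparagine from aspartate, stood at 383, 259 and 299 CPM in the control and at 536, 604 and 595 CPM with TMPyP4 (0.88 ± 0.123, adjusted p = 2e-05). *Psat1*, an enzyme of serine synthesis, went from 898, 626 and 721 CPM to 1293, 1296 and 1298 CPM (0.79 ± 0.1, adjusted p = 7.96e-06). The 3 treated libraries of *Psat1* were nearly equal, whereas its control libraries were spread.

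Regulators and end-point genes rose as well, although 3 of the set did not pass. *Atf3*, a factor induced by many stresses, had the largest log2 fold change of the 10, from 8.39, 7.96 and 8.01 CPM to 19.6, 22.4 and 22 CPM (1.39 ± 0.103, adjusted p = 2.5e-08). *Vldlr*, a receptor for apolipoprotein E and reelin, went from 91.2, 80.9 and 78.6 CPM to 160.3, 168 and 158 CPM (0.95 ± 0.0674, adjusted p = 1.55e-08). *Trib3*, a pseudokinase that binds ATF4 and restrains it, went from 44.5, 38.5 and 43.5 CPM to 82.3, 62.1 and 82.6 CPM (0.84 ± 0.196, adjusted p = 0.00227). The second treated library of *Trib3* was the lowest of the group but stayed above the control. *Chac1*, which degrades glutathione, stood at 40.1, 36.8 and 42.1 CPM without and at 62.2, 55.6 and 65.1 CPM with TMPyP4 (0.62 ± 0.173, adjusted p = 0.00777). *Ddit3* stood at 36.3, 42.7 and 45.5 CPM and then at 49.1, 51.8 and 57 CPM, which did not pass the test (0.34 ± 0.119, adjusted p = 0.0269). *Sesn2* and *Ddit4*, both inhibitors of mTORC1 signalling, did not pass either, with 0.32 ± 0.23 (adjusted p = 0.272) and 0.29 ± 0.125 (adjusted p = 0.0693). *Chac1* lost its call on leaving out each of the 6 libraries (adjusted p = 0.0119 to 0.0319), and *Trib3* lost it without TMPyP4 replicate 3 (adjusted p = 0.0119).

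**Figure D1:**
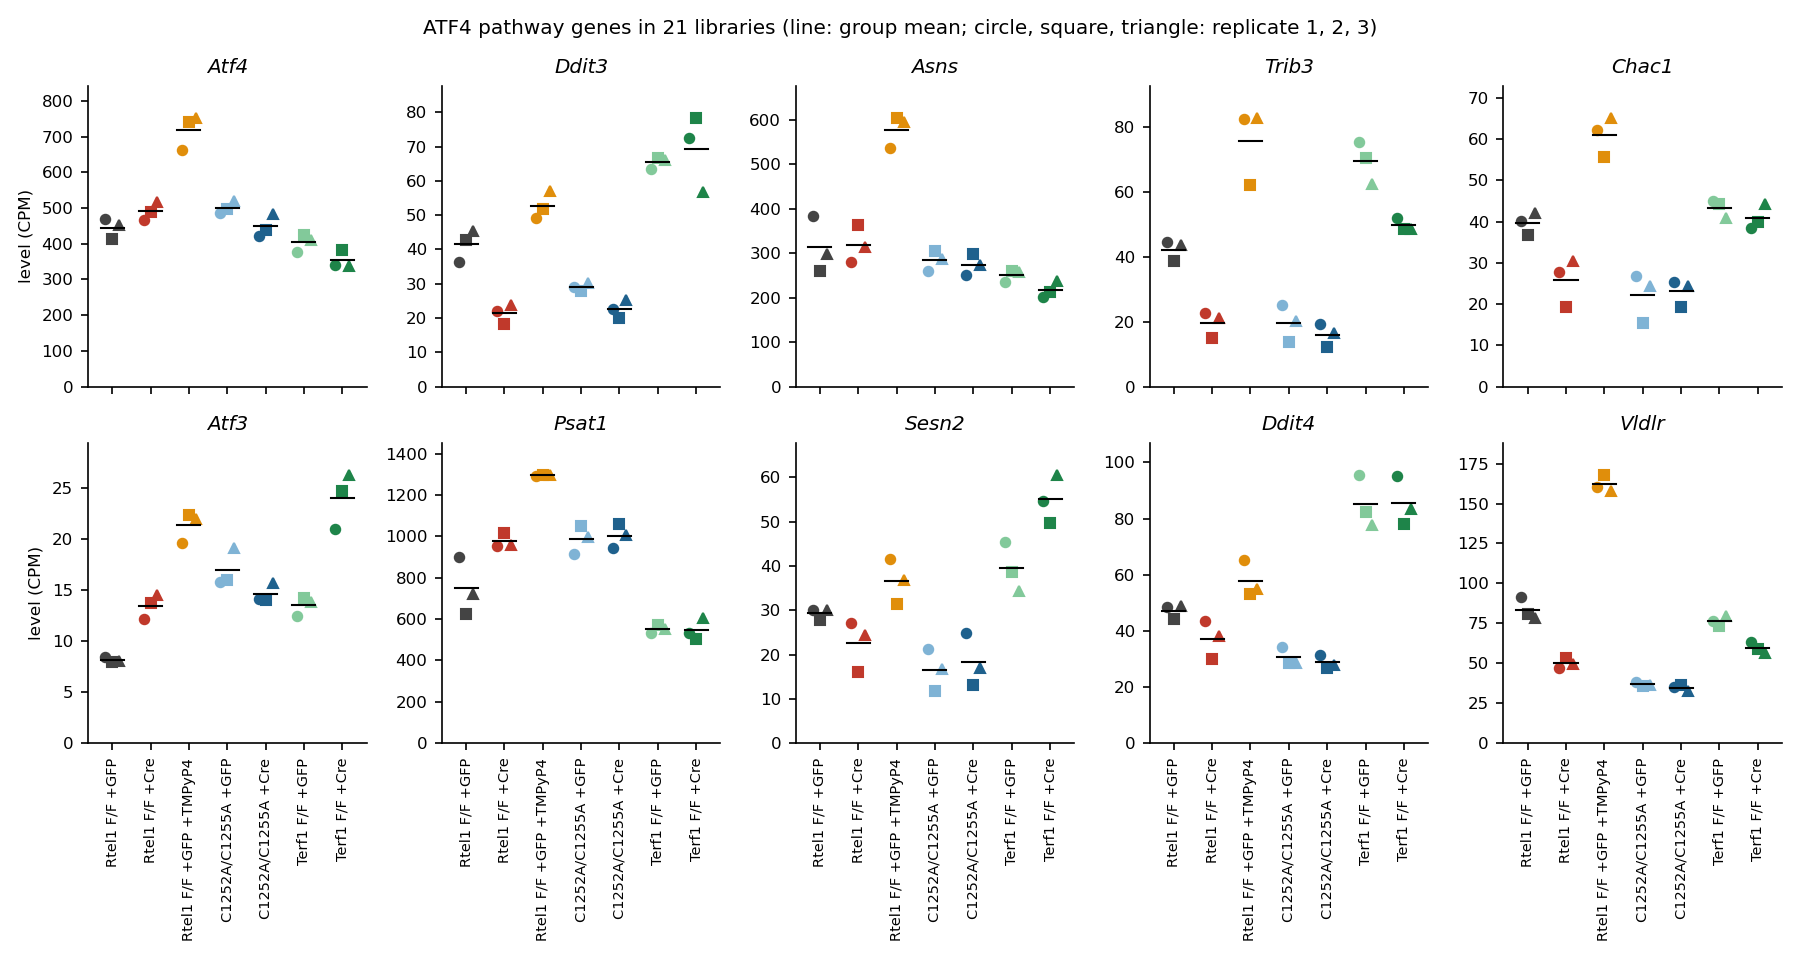
Level (CPM, linear axis from 0) of each of the 10 genes in the 21 libraries. Points are libraries (circle, square and triangle for replicates 1, 2 and 3) and lines are group means, and the TMPyP4-treated cells had the highest mean of the 7 groups for 6 of the 10 genes.

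Because the *Rtel1* F/F +GFP libraries stood apart, the treated cells were also set against C1252A/C1255A +GFP cells, which carry the same control virus and the vector. Here 9 of the 10 genes passed the test, all upwards, where 17% of all tested genes passed in either direction, 9.94% upwards and 7.07% downwards. Groups did not overlap for all 10, and for 40.3% of all genes. The median log2 fold change was 0.98, against 0.014 over all genes. *Vldlr* (2.14 ± 0.07, adjusted p = 1.21e-12), *Trib3* (1.94 ± 0.202, adjusted p = 1.92e-06) and *Chac1* (1.46 ± 0.176, adjusted p = 8.58e-06) differed most. *Ddit3* (0.86 ± 0.12, adjusted p = 3.49e-05), *Sesn2* (1.14 ± 0.234, adjusted p = 0.00156) and *Ddit4* (0.92 ± 0.127, adjusted p = 2.93e-05), which did not pass against *Rtel1* F/F +GFP cells, passed here. *Atf3*, which had the largest rise against *Rtel1* F/F +GFP cells, did not pass (0.33 ± 0.0999, adjusted p = 0.0194). Same-numbered libraries of these groups deviated together, and in a fit with replicate number as a block, added after the data were seen, *Atf3* passed too (0.33 ± 0.0762, adjusted p = 0.00265), making 10 of 10, where 23.9% of all tested genes passed. The vector and the TMPyP4 treatment cannot be told apart in this comparison.

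*Rtel1* deletion split the set. Of the 10 genes, 4 fell (*Ddit3*, *Trib3*, *Chac1* and *Vldlr*), 2 rose (*Atf3* and *Psat1*) and 4 did not pass, in a comparison where 43% of all tested genes passed in either direction, 22% upwards and 21% downwards. The share of the 10 that passed was thus not far above that of all genes. Groups did not overlap for 8 of the 10, and for 61.4% of all genes. The median log2 fold change was -0.36, against -0.034 over all genes.

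*Ddit3*, the gene for CHOP, stood at 22, 18.3 and 23.7 CPM in *Rtel1* F/F +Cre cells, below each of its control libraries (-0.96 ± 0.121, adjusted p = 2.93e-06). *Trib3* was at 22.7, 14.9 and 21.1 CPM (-1.11 ± 0.199, adjusted p = 0.000152). *Vldlr* was at 46.9, 53.3 and 49.6 CPM (-0.74 ± 0.0676, adjusted p = 6.65e-08). In these 3 genes the deleted and control libraries were well separated. *Chac1* was at 27.7, 19.3 and 30.5 CPM (-0.62 ± 0.174, adjusted p = 0.00598). *Atf3* was at 12.2, 13.7 and 14.5 CPM, above its control (0.73 ± 0.102, adjusted p = 9.94e-06). *Psat1* was at 955, 1016 and 958 CPM (0.38 ± 0.0996, adjusted p = 0.00322). *Atf4* itself stood at 466, 490.2 and 517 CPM, overlapping its control libraries (0.14 ± 0.0752, adjusted p = 0.121), and *Asns* at 281, 364 and 314 CPM overlapped as well (0.03 ± 0.122, adjusted p = 0.859). *Sesn2* (27.1, 16.1 and 24.3 CPM) and *Ddit4* (43.5, 29.8 and 38.1 CPM) lay below their controls without passing the test (adjusted p = 0.17 and 0.0258). The call of *Chac1* was lost without *Rtel1* F/F +Cre replicate 1 (adjusted p = 0.0103) or 2 (0.0219), or without *Rtel1* F/F +GFP replicate 1 (0.0146) or 3 (0.0149). That of *Psat1* was lost without +Cre replicate 2 (0.0222), or without +GFP replicate 2 (0.0346) or 3 (0.0203), and *Ddit4* passed without +Cre replicate 1 (0.00524). With these 2 groups fitted alone, *Ddit3*, *Trib3*, *Vldlr* and *Atf3* kept their call, and *Chac1* (0.0142) and *Psat1* (0.0399) lost it.

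Undeleted C1252A/C1255A +GFP cells differed from undeleted *Rtel1* F/F +GFP cells in much of the same set. This comparison shares its control libraries with the +Cre and TMPyP4 comparisons above, so the values are given side by side and no overlap is drawn from them. Of the 10 genes, 2 were higher (*Atf3* and *Psat1*) and 6 lower (*Ddit3*, *Trib3*, *Chac1*, *Sesn2*, *Ddit4* and *Vldlr*), where 44.7% of all tested genes passed. Groups did not overlap for 9 of the 10, and for 63.6% of all genes. *Vldlr* was at 38.2, 36 and 36.1 CPM in C1252A/C1255A +GFP cells, a log2 difference of -1.18 ± 0.0683 (adjusted p = 3e-10), beside -0.74 for *Rtel1* F/F +Cre cells. *Trib3* was at 25.2, 13.7 and 20.2 CPM (-1.09 ± 0.199, adjusted p = 0.000166), beside -1.11. *Chac1* was at 26.9, 15.3 and 24.3 CPM (-0.84 ± 0.175, adjusted p = 0.000542), beside -0.62. For *Trib3* and *Chac1* these libraries, which had not received Cre, overlapped those of the deleted cells. *Ddit3* was at 29.1, 27.9 and 30.1 CPM (-0.52 ± 0.119, adjusted p = 0.00126), beside -0.96, and *Atf3* was at 15.8, 16 and 19.1 CPM (1.06 ± 0.102, adjusted p = 1.23e-07), beside 0.73. *Psat1* differed by 0.4 (adjusted p = 0.00231), *Sesn2* by -0.82 (adjusted p = 0.00657) and *Ddit4* by -0.63 (adjusted p = 0.000353). *Psat1* lost its call without C1252A/C1255A +GFP replicate 2 (0.0133), or without *Rtel1* F/F +GFP replicate 2 (0.0216) or 3 (0.0135). *Sesn2* lost it without C1252A/C1255A +GFP replicate 2 (0.0357) or 3 (0.0146), or without *Rtel1* F/F +GFP replicate 1 (0.0168) or 3 (0.0139).

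With C1252A/C1255A +GFP cells as the control for *Rtel1* F/F +Cre cells, 1 of the 10 genes passed, where 7.76% of all tested genes passed, 3.8% upwards and 3.95% downwards. That gene was *Vldlr*, which was higher in the deleted cells (0.44 ± 0.0678, adjusted p = 0.000176), opposite to its direction against *Rtel1* F/F +GFP cells. *Trib3* gave -0.02 ± 0.199 (adjusted p = 0.988), *Psat1* -0.02 ± 0.0995 (adjusted p = 0.963) and *Chac1* 0.22 ± 0.175 (adjusted p = 0.513). *Ddit3* was lower without passing (-0.44 ± 0.12, adjusted p = 0.019), and its 3 deleted libraries lay below the 3 of this control. *Atf3* gave -0.33 ± 0.101 (adjusted p = 0.034), again opposite in sign. These libraries were also paired by number, and with replicate number as a block 2 of the 10 passed, where 10.4% of all tested genes did: *Vldlr* remained higher (0.44, adjusted p = 9.03e-05) and *Atf3* was lower (-0.33 ± 0.0771, adjusted p = 0.00516). *Ddit4* (0.28, adjusted p = 0.011), *Ddit3* (-0.44, adjusted p = 0.0145) and *Sesn2* (0.44, adjusted p = 0.0571) did not pass with the block. The fall of *Trib3* and *Chac1* and the rise of *Atf3* and *Psat1* in deleted cells therefore depended on which undeleted cells they are compared with, and the vector, the line it made and the deletion cannot be told apart across these groups.

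**Figure D2:**
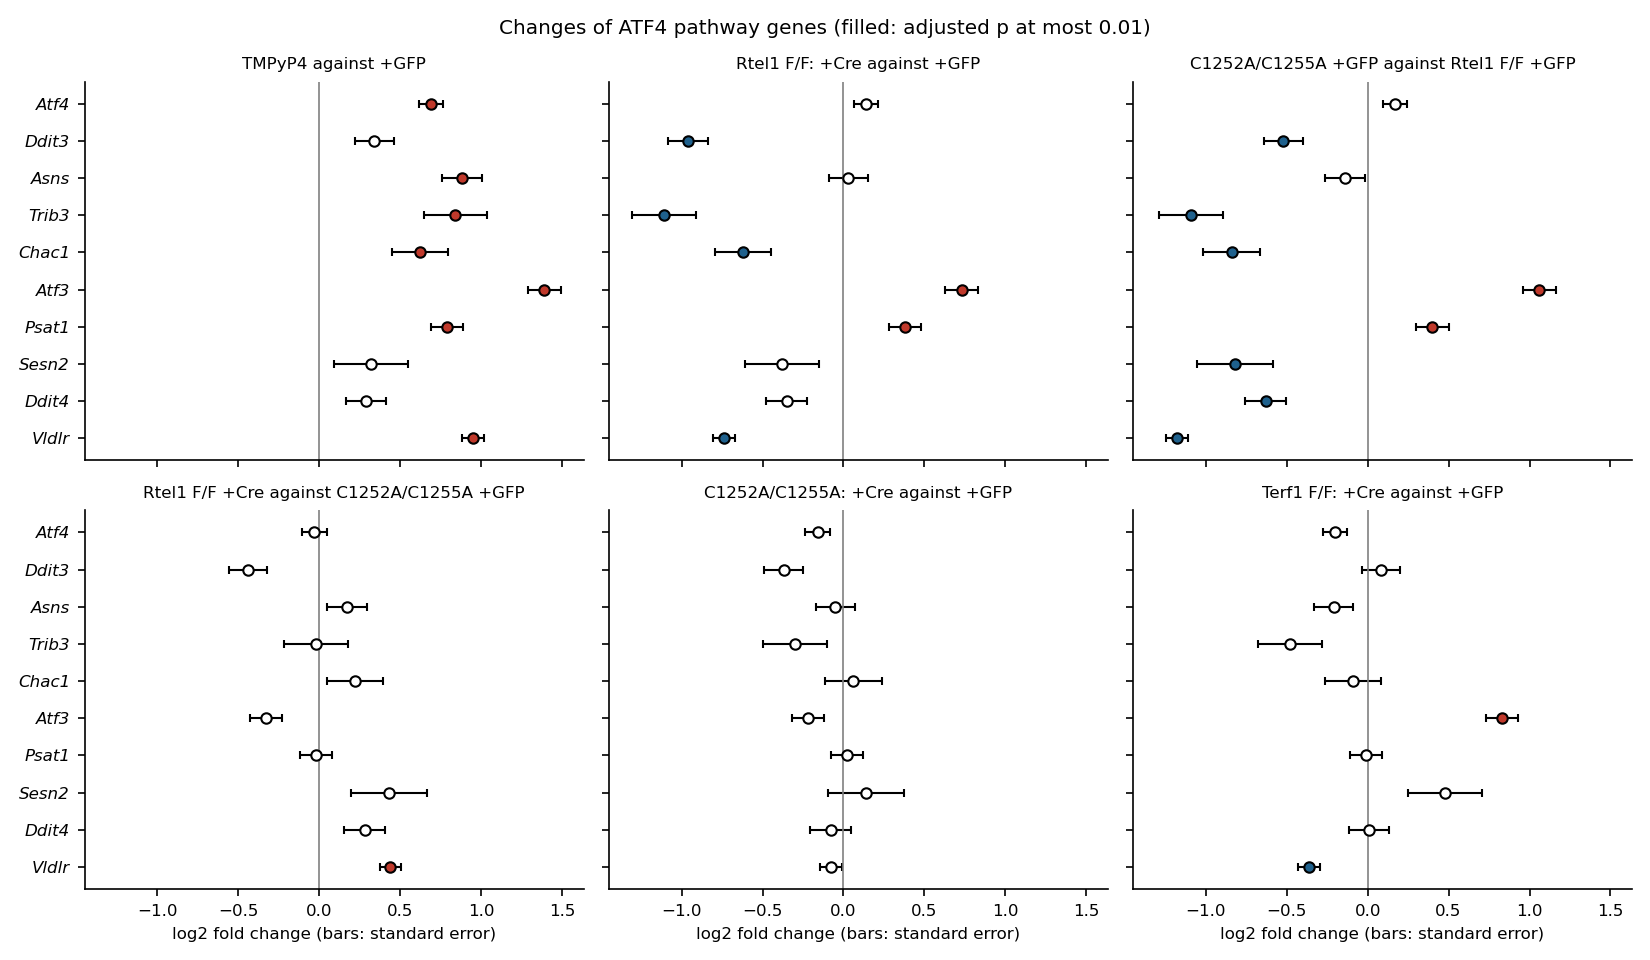
Log2 fold change (points) with its standard error (bars) of the 10 genes in 6 comparisons, filled where the adjusted p was at most 0.01 (red higher, blue lower). The fold changes of *Rtel1* F/F +Cre and C1252A/C1255A +GFP cells against the same *Rtel1* F/F +GFP libraries stand next to each other, and against C1252A/C1255A +GFP cells 1 gene, *Vldlr*, is filled in this fit without a replicate block.

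*Rtel1*-deleted and TMPyP4-treated cells were compared directly, in a contrast that does not use the means of *Rtel1* F/F +GFP cells, although their spread enters the fit over all 21 libraries. All 10 genes were lower in each deleted library than in each treated library, where 37.8% of all genes had groups that did not overlap, and 9 of the 10 passed the test, all downwards, where 15.2% of all tested genes passed in either direction, 9.09% downwards and 6.13% upwards. The median log2 difference was -0.78, against -0.003 over all genes. *Trib3* differed most, at -1.95 ± 0.203 (adjusted p = 2.32e-06), which is 3.87-fold. *Vldlr* differed by -1.7 ± 0.0689 (adjusted p = 1.27e-11), *Ddit3* by -1.3 ± 0.121 (adjusted p = 4.66e-07) and *Chac1* by -1.24 ± 0.175 (adjusted p = 5.18e-05). Differences were smaller for *Atf4* (-0.55 ± 0.0754, adjusted p = 3.25e-05) and *Psat1* (-0.41 ± 0.0996, adjusted p = 0.00543), and between these for *Asns* (-0.86), *Atf3* (-0.66) and *Ddit4* (-0.64). *Sesn2* did not pass (-0.71 ± 0.232, adjusted p = 0.0337). Same-numbered libraries of these groups deviated together, and when the fit took replicate number as a block *Sesn2* passed (-0.72, adjusted p = 0.000465). *Psat1* lost its call on leaving out each of the 6 libraries (adjusted p = 0.0146 to 0.0509) and with DESeq2 size factors (0.0126), and *Ddit4* lost it when these 2 groups were fitted alone (0.0245).

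The effect of Cre on the set was also read in the other lines. In C1252A/C1255A cells 0 of the 10 genes passed edgeR's test, where 1.09% of all tested genes passed, 0.525% upwards and 0.569% downwards, and 0 passed with DESeq2. With so low a share over all genes, 0 of the 10 does not set the members apart. Groups did not overlap for 3 of the 10 (*Atf4*, *Ddit3* and *Atf3*, all lower with Cre), and for 16.2% of all genes. These 3 did not pass the test (adjusted p = 0.333, 0.115 and 0.331). *Ddit3*, for example, went from 29.1, 27.9 and 30.1 CPM to 22.5, 19.9 and 25.2 CPM (-0.37 ± 0.12, adjusted p = 0.115). *Rtel1* itself went from 328 to 338 CPM in C1252A/C1255A +GFP cells to 253 to 283 CPM with Cre, all above the 59.1 to 66.2 CPM of *Rtel1* F/F +GFP cells without the vector.

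In *Terf1* F/F cells 2 of the 10 passed, where 3.42% of all tested genes passed, 2.65% upwards and 0.765% downwards. Groups did not overlap for 4 of the 10, and for 26.9% of all genes. *Atf3* rose from 12.5, 14.2 and 13.8 CPM to 21, 24.7 and 26.3 CPM (0.83 ± 0.1, adjusted p = 2.32e-05). *Vldlr* fell from 76.6, 73.2 and 79.5 CPM to 63.1, 59.2 and 56.5 CPM (-0.36 ± 0.0673, adjusted p = 0.00215), a call lost without +Cre replicate 2 (0.0241) or 3 (0.0319), or without +GFP replicate 1 (0.0105) or 3 (0.0178). *Sesn2* was higher in each deleted library, at 54.7, 49.8 and 60.6 CPM against 45.5, 38.6 and 34.3 CPM, without passing (0.48 ± 0.228, adjusted p = 0.294). *Trib3* was lower in each, at 51.8, 48.5 and 48.6 CPM against 75.4, 70.4 and 62.5 CPM (-0.48 ± 0.195, adjusted p = 0.187). With these 2 groups fitted alone, *Trib3* passed (adjusted p = 0.00899) and *Vldlr* did not (0.0141). *Ddit3* (63.4, 66.7 and 66.2 CPM with GFP, 72.6, 78.3 and 56.7 CPM with Cre) and *Ddit4* (95.6, 82.2 and 77.8 CPM, then 95.1, 78.1 and 83.5 CPM) overlapped.

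The effects of Cre were compared between lines as a difference of differences. Against C1252A/C1255A cells, where 25.1% of all tested genes passed, the effect in *Rtel1* F/F cells was higher for *Atf3* and lower for *Vldlr*, and 8 of the 10 did not pass. Against *Terf1* F/F cells, where 30.2% passed, it was lower for *Ddit3* and *Vldlr*. Both tests contain the *Rtel1* F/F +GFP libraries.

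Undeleted cells of the *Terf1* F/F line were also compared with undeleted *Rtel1* F/F cells. Against *Rtel1* F/F +GFP cells, *Terf1* F/F +GFP cells were higher in *Ddit3* (0.65 ± 0.119, adjusted p = 9.74e-05), *Trib3* (0.72 ± 0.195, adjusted p = 0.00373), *Atf3* (0.73 ± 0.102, adjusted p = 5.1e-06) and *Ddit4* (0.85 ± 0.125, adjusted p = 9.78e-06), and lower in *Psat1* (-0.44 ± 0.0997, adjusted p = 0.000783). These were 5 of the 10, where 54.9% of all tested genes passed, 30.3% upwards and 24.5% downwards. Groups did not overlap for 6 of the 10, and for 72.6% of all genes. The shares of the 10 were thus not above those of all genes. The call of *Trib3* was lost without *Rtel1* F/F +GFP replicate 2 (0.0119) or without *Terf1* F/F +GFP replicate 1 (0.016), and *Asns* passed without *Rtel1* F/F +GFP replicate 2 (0.00774).

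Across the 7 groups, *Trib3* (4.73-fold) and *Vldlr* (4.66-fold) had the widest range between the highest and lowest group means and *Atf4* the narrowest (2.04-fold). *Atf4* was highest with TMPyP4 (719 ± 48.8 CPM, SD, n = 3), apart from all other groups, whereas neighbouring groups among the other 6 overlapped, from 502 CPM in C1252A/C1255A +GFP to 353 CPM in *Terf1* F/F +Cre cells. The same held for *Asns*, with 578 CPM in treated cells and 216 to 319.7 CPM elsewhere. *Ddit3*, *Sesn2*, *Ddit4* and *Atf3* had their highest mean in *Terf1* F/F +Cre cells, at 69.2, 55, 85.6 and 24 CPM. For *Ddit3*, *Terf1* F/F +Cre and +GFP cells overlapped at the top and C1252A/C1255A +Cre and *Rtel1* F/F +Cre cells overlapped at the bottom, with 22.5 and 21.4 CPM. On a scale corrected for transcript length (TPM), the order in *Rtel1* F/F +GFP cells was *Psat1* (743 ± 126 TPM, SD, n = 3), *Atf4* (662), *Asns* (354), *Ddit3* (118), *Ddit4* (62), *Chac1* (56.3), *Trib3* (44.6), *Sesn2* (23.5), *Vldlr* (20.6) and *Atf3* (8.96), in which *Psat1* and *Atf4* overlapped between libraries.

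The genes whose profile over the 7 group means was most like that of *Atf4* were found by the root mean square difference of log2 CPM, each gene centred on its own mean, among 10238 genes. They were *Gid4* (0.0572), a substrate receptor of a ubiquitin ligase, *Gars* (0.0825) and *Eprs* (0.0849), which charge tRNA with glycine and with glutamate and proline. For *Asns* they were *Mthfd2* (0.0698), an enzyme of mitochondrial one-carbon metabolism, *Slc1a5* (0.106), a glutamine transporter, and *Tbc1d31* (0.11), and for *Ddit3* they were *Atf5* (0.132), *Pwwp2b* (0.155) and *Svil* (0.159). Of the 10 genes, *Asns* (0.154) and *Psat1* (0.225) were nearest to *Atf4*, and *Trib3* (0.894) and *Ddit3* (0.772) the farthest. The distances describe these 7 points, which share libraries and lines.

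Replicate 2 stood low for part of the set. In *Rtel1* F/F +Cre, *Rtel1* F/F +GFP +TMPyP4, C1252A/C1255A +GFP and C1252A/C1255A +Cre cells, replicate 2 was the lowest of its group for *Sesn2*, *Trib3* and *Chac1* in all 4 groups. Its distance from the group mean (log2) was -0.46 to -0.21 for *Sesn2*, -0.48 to -0.27 for *Trib3* and -0.49 to -0.13 for *Chac1*. In the same libraries it was 0.07 to 0.19 for *Asns* and -0.03 to 0.05 for *Atf4*. What replicate numbers share is not given in the labels. Fits with replicate number as a block are given above where numbers paired the libraries and a call changed.

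**Figure D3:**
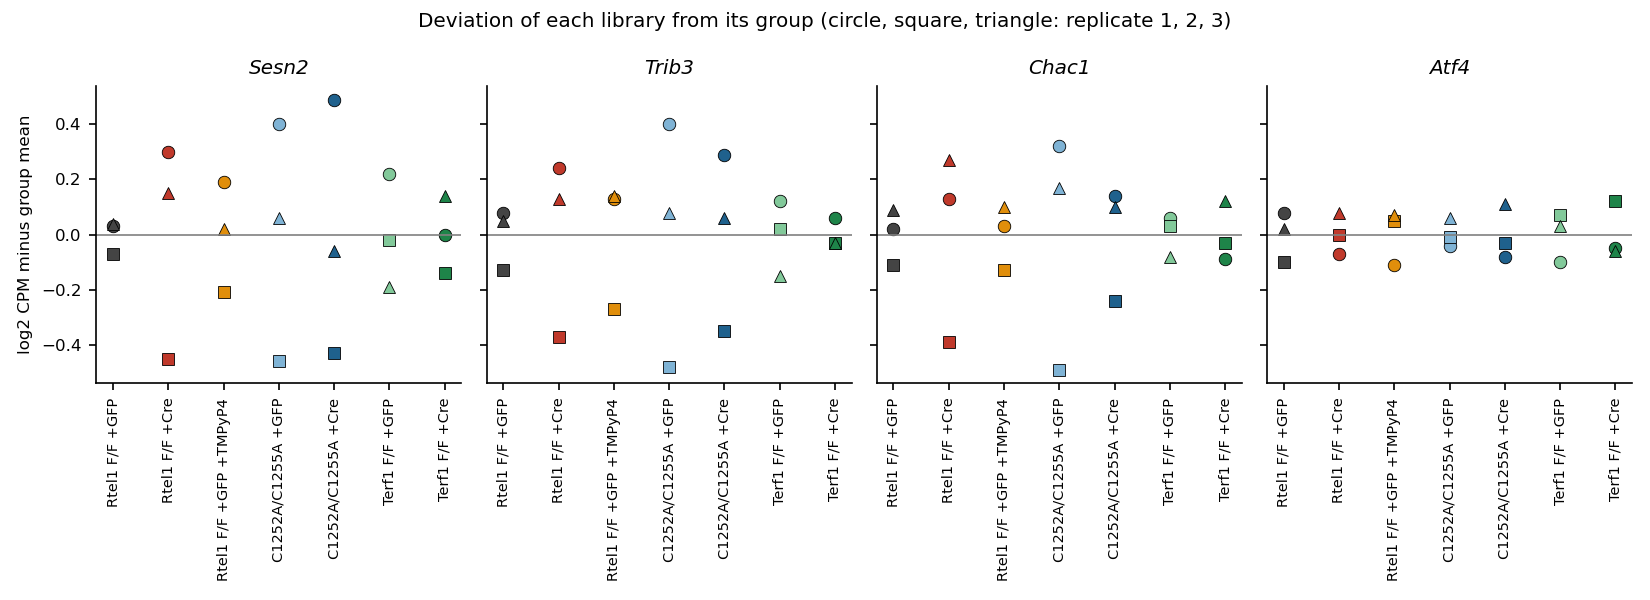
Log2 CPM minus the group mean for *Sesn2*, *Trib3*, *Chac1* and *Atf4* in each library (circle, square and triangle for replicates 1, 2 and 3). The squares of the 4 groups from *Rtel1* F/F +Cre to C1252A/C1255A +Cre lie lowest for *Sesn2*, *Trib3* and *Chac1*, and those of *Atf4* lie near 0.

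Other genes of the pathway were read from lists by function. The control for TMPyP4 and for *Rtel1* deletion was *Rtel1* F/F +GFP cells unless stated. In these comparisons 16.6% of all tested genes rose and 13.4% fell with TMPyP4, and 22% rose and 21% fell after deletion. Aminoacyl-tRNA synthetases and *Xpot*, the exporter of tRNA from the nucleus, rose with TMPyP4 in 13 of 13, with a median log2 fold change of 0.7. *Nars* (1.08, adjusted p = 5.8e-07) and *Lars* (1.02, adjusted p = 1.82e-07) changed most. After *Rtel1* deletion 4 of the 13 rose and 1 fell, with a median of 0.14, and in the direct comparison 9 were lower in deleted than in treated cells. Amino acid synthesis and one-carbon genes rose with TMPyP4 in 9 of 13 (median 0.67), led by *Cth* (2.12, adjusted p = 4.97e-09), which makes cysteine from cystathionine, and *Psph* (1.08, adjusted p = 3e-06), the last step of serine synthesis. After deletion 2 rose and 4 fell, among them *Pycr1* of proline synthesis (-0.83, adjusted p = 0.000553). Amino acid transporters rose with TMPyP4 in 5 of 10, with *Slc7a3* at 1.69 (adjusted p = 8.66e-10), and after deletion 1 rose and 6 fell, with the glycine transporter *Slc6a9* at -1.16 (adjusted p = 0.000113) and the cystine transporter *Slc7a11* at -0.64 (adjusted p = 0.000265). C1252A/C1255A +GFP cells had 1 transporter higher and 6 lower than *Rtel1* F/F +GFP cells, *Slc6a9* (-1.07) and *Slc7a11* (-1.15) among the lower. With C1252A/C1255A +GFP cells as the control, 13 of 13, 10 of 13 and 8 of 10 genes of these lists rose with TMPyP4, and 0 fell. After deletion 1 gene of the synthetase list rose, 0 synthesis genes passed, and 1 transporter rose and 2 fell.

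Of 18 other targets of ATF4 and CHOP, 8 rose and 3 fell with TMPyP4, and 5 rose and 7 fell after deletion. *Fam129a*, which encodes Niban, rose with TMPyP4 (1.55, adjusted p = 3.9e-10) and gave 0.17 after deletion (adjusted p = 0.0909). *Trib2*, a relative of *Trib3*, fell in both (-1.68, adjusted p = 1.56e-08, and -2.7, adjusted p = 1.73e-11). Its mean was 24.6 CPM in *Rtel1* F/F +GFP cells, 7.68 with TMPyP4, 3.77 after deletion and 8.45 in C1252A/C1255A +GFP cells. Set against C1252A/C1255A +GFP cells, 9 of these 18 targets rose and 1 fell with TMPyP4, and 1 rose and 1 fell after deletion. Among 11 bZIP partners and co-regulators of ATF4, 2 rose and 3 fell with TMPyP4. The partners that rose were *Nupr1* (0.68, adjusted p = 2.23e-05) and *Cebpg* (0.4, adjusted p = 0.00188). After deletion 1 rose and 5 fell, including *Atf5* (-0.98, adjusted p = 5.46e-06), itself a target of ATF4. C1252A/C1255A +GFP cells had 1 of the 11 higher and 6 lower than *Rtel1* F/F +GFP cells. Set against these C1252A/C1255A +GFP cells, 4 rose and 1 fell with TMPyP4, and 0 passed after deletion. *Atf5* was at 79.3 to 103 CPM in C1252A/C1255A +GFP cells and at 74.1 to 89.6 CPM in deleted cells.

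Upstream of ATF4, 2 of the 4 eIF2 kinases passed a test in *Rtel1* F/F cells. *Eif2ak3* (PERK, the sensor of misfolded protein in the endoplasmic reticulum) fell with TMPyP4 (-0.35, adjusted p = 0.000315) and after deletion (-0.31, adjusted p = 0.000528), and *Eif2ak1* (the haem sensor) rose after deletion (0.3, adjusted p = 0.000596). *Eif2ak2* (PKR, the sensor of double-stranded RNA) gave 0.02 with TMPyP4 and 0.03 after *Rtel1* deletion and rose after *Terf1* deletion (0.66, adjusted p = 0.000107), and *Eif2ak4* (GCN2, the sensor of amino acid shortage) gave 0.2 with TMPyP4 (adjusted p = 0.0225). *Ppp1r15a*, the inducible subunit of the eIF2 phosphatase and a target of the pathway, rose with TMPyP4 (0.61, adjusted p = 0.000165) and gave 0.02 after deletion (adjusted p = 0.889). In *Rtel1* F/F +GFP, +Cre and C1252A/C1255A +GFP cells, mean levels were 48, 38.8 and 39.1 CPM for *Eif2ak3* and 59.5, 73.4 and 72.4 CPM for *Eif2ak1*. Set against C1252A/C1255A +GFP cells, 1 of the 6 kinases and phosphatase subunits tested rose with TMPyP4, and 0 passed after *Rtel1* deletion. Subunits of eIF2 and eIF2B and regulators of GCN2 rose in 4 of 11 with TMPyP4, in 7 of 11 after deletion and in 8 of 11 in C1252A/C1255A +GFP cells. With C1252A/C1255A +GFP cells as the control, 0 rose and 2 fell with TMPyP4, and 0 passed after deletion. Genes of the endoplasmic reticulum stress arms driven by ATF6 and XBP1 had 1 of 20 higher and 3 lower with TMPyP4, with a median of 0. *Hspa5*, the chaperone BiP, gave 0.08 there (adjusted p = 0.326). Mitochondrial chaperones and proteases rose in 4 of 8 with TMPyP4, *Hspa9* most (1.33, adjusted p = 4.62e-08), and in 5 of 8 after deletion, *Hspd1* most (1.58, adjusted p = 4.84e-07). C1252A/C1255A +GFP cells had 4 of these 8 higher than *Rtel1* F/F +GFP cells and 0 lower. With C1252A/C1255A +GFP cells as the control, 2 of 8 rose and 0 fell with TMPyP4 (median -0.1), and 0 passed after deletion.

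Lists of other pathways known to reach some of these genes were read as well. Of 15 targets of p53, 8 rose with TMPyP4, 9 rose and 1 fell after *Rtel1* deletion, 8 rose after *Terf1* deletion and 5 rose with Cre in C1252A/C1255A cells. C1252A/C1255A +GFP cells had 8 of the 15 higher and 1 lower than *Rtel1* F/F +GFP cells. With C1252A/C1255A +GFP cells as the control, 1 rose and 2 fell with TMPyP4 (median -0.01), and 6 rose and 0 fell after *Rtel1* deletion. *Cdkn1a*, the cell cycle inhibitor p21, gave 0.84 (adjusted p = 5.56e-09) with TMPyP4, 1.22 (adjusted p = 1.6e-11) after *Rtel1* deletion and 0.77 (adjusted p = 1.79e-07) after *Terf1* deletion. Of 14 hypoxia targets, 4 rose and 1 fell with TMPyP4, and 5 rose and 2 fell after *Rtel1* deletion. Set against C1252A/C1255A +GFP cells, 2 rose and 4 fell with TMPyP4, and 1 rose and 2 fell after deletion. Of 6 glucocorticoid receptor targets tested, 2 rose with TMPyP4, and 1 rose against C1252A/C1255A +GFP cells. Of 3 reelin pathway genes and partners of *Vldlr* tested, *Lrp8* was higher with TMPyP4 (0.42, adjusted p = 0.008) and *Lrpap1* lower (-0.52, adjusted p = 0.000152). Against C1252A/C1255A +GFP cells 0 of the 3 passed with TMPyP4, and *Lrp8* had means of 64.4 CPM in that control and 49.6 CPM with TMPyP4. The part of p53, hypoxia or glucocorticoid signalling in the levels of the 10 genes was not tested.

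**Figure D4:**
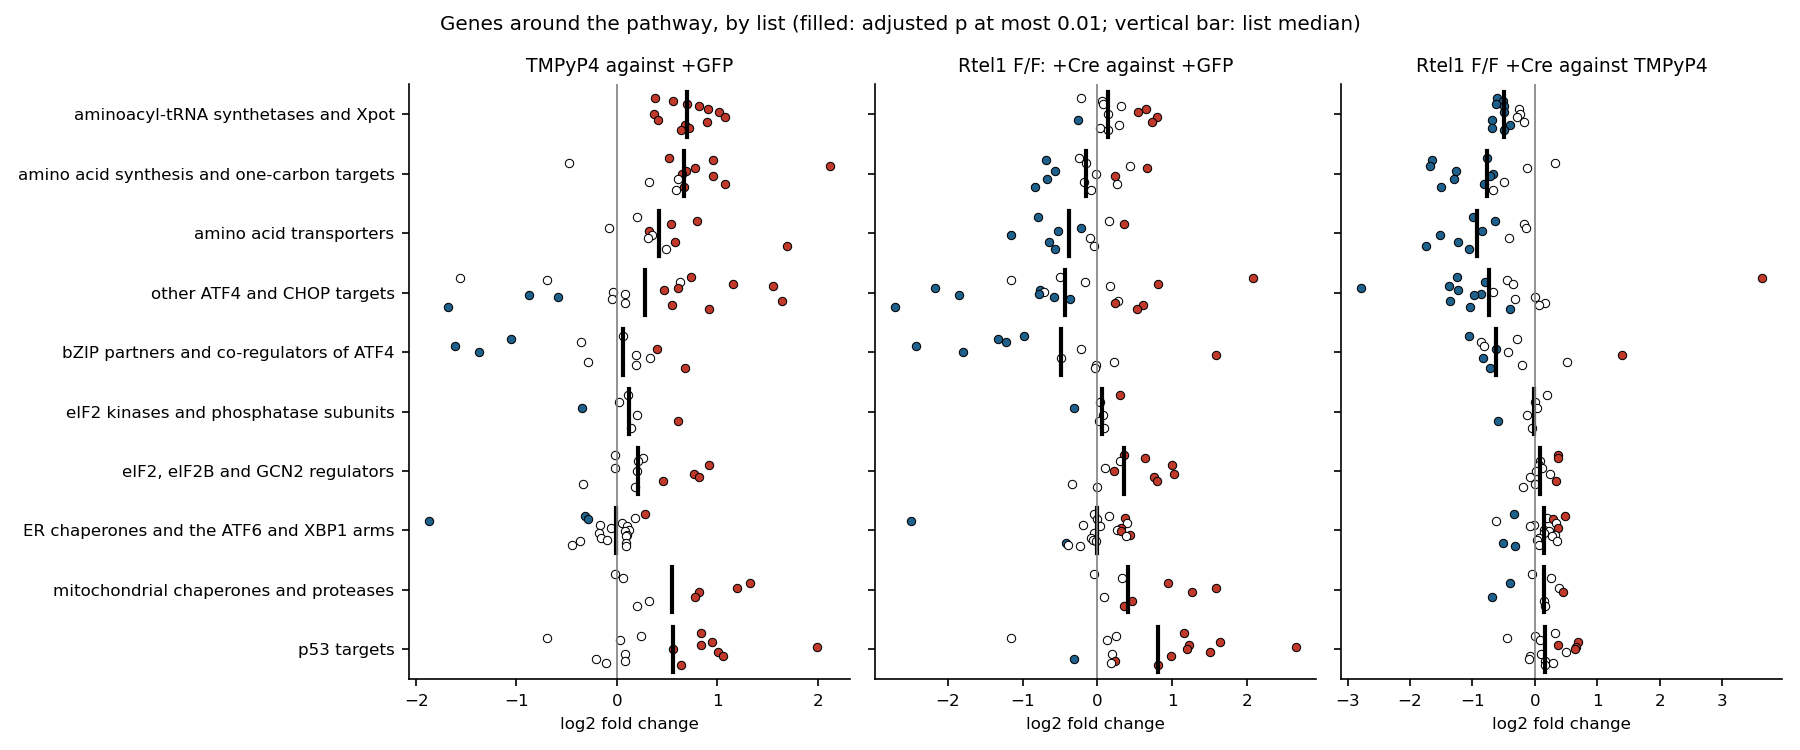
Log2 fold change of each tested gene in 10 lists (points, filled where the adjusted p was at most 0.01) with the list median (vertical bar) in 3 comparisons. With TMPyP4 all 13 aminoacyl-tRNA synthetases and *Xpot* are filled on the right, and in the direct comparison 9 of them are filled on the left.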

How the data were processed

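Per the labels and the methods, reads were trimmed with cutadapt 1.9.1, aligned with STAR 2.5.2a and counted by strand with RSEM 1.3.0 on RefSeq genes of mm10. The authors deposited expected counts per gene without normalization, all of them whole numbers, and TPM values scaled by RSEM for transcript length. Read length and serum differ between the labels and the methods. Expected counts entered edgeR 4.0.16 in R 4.3.3 (TMM, filterByExpr, 1 coefficient per group over all 21 libraries, 14 residual degrees of freedom, robust two-sided quasi-likelihood test, Benjamini-Hochberg adjustment over 13719 genes, genes called where adjusted p did not exceed 0.01). The SE is the log2 fold change divided by the root of F. Log2 CPM used a prior count of 2. TPM served only to order genes by level.

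The members and lists were chosen with earlier results of these data known. All members were named, with up to 6 called genes per list of largest change and at least 5 CPM, the eIF2 kinases and phosphatase subunits, the targeted genes and the 3 nearest profiles. Of the listed genes 3 did not pass the filter (*Zbtb16*, *Reln* and *Dab1*).

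Each fit was repeated with DESeq2 1.42.0 or with DESeq2 scaling inside edgeR, without the filter or with a minimum of 10 counts per library, on the compared groups alone, with replicate as a block, at a threshold of 0.05, with a minimum absolute log2 change of 1, with the other control and with each library removed. Whether numbers pair libraries was checked from the data alone, as the correlation over 11840 genes of how same-numbered libraries deviated within their groups, and taken to hold where all 3 exceeded 0.1. It held for TMPyP4-treated against *Rtel1* F/F +Cre cells (0.72, 0.76 and 0.41) and between C1252A/C1255A +GFP and +Cre cells (0.86, 0.84 and 0.42), and for C1252A/C1255A +GFP against *Rtel1* F/F +Cre (0.78, 0.81 and 0.2) and TMPyP4-treated cells (0.78, 0.69 and 0.3), for which a block over all lines was added after the data were seen. It did not hold with *Rtel1* F/F +GFP cells (-0.02 to 0.13) or in the *Terf1* F/F line (0.55, 0.36 and -0.1). Fits were tested on simulated data. Promoters were searched with Python 3.11.15 and figures drawn with matplotlib 3.10.9.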

Additional observations from a re-analysis of the deposited data

Results flagged for a closer look

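The effect of Cre differed between lines for 3 of the 10 genes, tested as a difference of differences in the fit across all genes (edgeR). Each difference was called for 2 of the 10, where 25.1% (from C1252A/C1255A cells) and 30.2% (from *Terf1* F/F cells) of all tested genes were called. Relative to C1252A/C1255A cells, the effect of Cre on *Atf3* in *Rtel1* F/F cells was higher by 0.94 on the log2 scale (SE 0.143, adjusted p = 6.67e-05), with 0.73 in *Rtel1* F/F cells and -0.22 in C1252A/C1255A cells. That on *Vldlr* differed by -0.67 (SE 0.0956, adjusted p = 4.1e-05), with -0.74 and -0.08. Relative to *Terf1* F/F cells, the effect on *Ddit3* differed by -1.04 (SE 0.168, adjusted p = 9.33e-05), with -0.96 in *Rtel1* F/F cells and 0.08 in *Terf1* F/F cells, and that on *Vldlr* by -0.38 (SE 0.0951, adjusted p = 0.00336), with -0.74 and -0.36. All 4 differences contain the *Rtel1* F/F +GFP libraries. Before any Cre, C1252A/C1255A +GFP cells differed from these by 1.06 for *Atf3* and -1.18 for *Vldlr*. Leaving out 1 library, the difference of *Vldlr* from *Terf1* F/F cells was no longer called without *Rtel1* F/F +Cre replicate 1 (adjusted p = 0.0111) or 3 (0.0208), *Rtel1* F/F +GFP replicate 1 (0.0101) or 2 (0.0131), *Terf1* F/F +Cre replicate 1 (0.0305) or 2 (0.0154), or *Terf1* F/F +GFP replicate 2 (0.0284). Those of *Atf3*, of *Ddit3* and of *Vldlr* from C1252A/C1255A cells kept their call in every such fit.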

How the results depend on the processing

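Of 1420 refitted log2 fold changes of the 10 genes, 1263 kept their direction and side of the threshold, 82 lost their call, 46 gained one and 29 turned sign. Requiring an absolute log2 fold change of at least 1 left 1 gene of the 10 called after *Rtel1* deletion, 1 with TMPyP4, 4 in the direct comparison of deleted with treated cells, 0 after *Terf1* deletion, 3 and 0 in C1252A/C1255A +GFP and *Terf1* F/F +GFP against *Rtel1* F/F +GFP cells, and 0 and 1 in the differences of the Cre effect from C1252A/C1255A and *Terf1* F/F cells. For these 2 differences, 6 and 5 were called at an adjusted p of 0.05 and 5 and 7 with the replicate block, and 1 in the latter without the filter or on the compared groups alone. The share of all genes is not given for these settings, so the counts show only how calls moved. With C1252A/C1255A +GFP as the control, 1 gene was called after *Rtel1* deletion, and the sign turned for *Atf4* (-0.03), *Chac1* (0.22), *Atf3* (-0.33), *Psat1* (-0.02), *Sesn2* (0.43), *Ddit4* (0.28) and *Vldlr* (0.44). The cause was not tested. *Ddit4* after *Terf1* deletion gave 0 with DESeq2 and without the filter.

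Leaving out 1 library at a time, 1 to 2 genes were called after *Terf1* deletion, 2 to 4 in the difference from C1252A/C1255A cells (4 without C1252A/C1255A +GFP replicate 1 or *Rtel1* F/F +GFP replicate 1) and 1 to 2 in that from *Terf1* F/F cells. The share of all genes is not given for these fits either, so these counts also show only how calls moved. Signs turned only for log2 fold changes near 0: *Asns* after *Rtel1* deletion (-0.09 to 0.2), in C1252A/C1255A cells (-0.13 to 0.01), in the difference between these (-0.04 to 0.26) and between their +GFP cells (-0.23 to 0.03); *Chac1* (-0.15 to 0.21), *Sesn2* (-0.15 to 0.34) and *Psat1* (-0.04 to 0.07) in C1252A/C1255A cells; and *Ddit4* (-0.08 to 0.1), *Psat1* (-0.09 to 0.04) and *Ddit3* (-0.02 to 0.2) after *Terf1* deletion.

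Numbers paired the libraries of deleted with treated cells and those within the C1252A/C1255A line. There the replicate block added *Sesn2* between deleted and treated cells and changed no other call. Numbers also paired C1252A/C1255A +GFP with deleted and with treated cells, and against this control the block, added after the data were seen, gave 2 calls in place of 1 and 10 in place of 9, gaining *Atf3* in both. With that block 10.4% and 23.9% of all tested genes passed. With *Rtel1* F/F +GFP cells as the control and in the *Terf1* F/F line, libraries shared only a number. There the block added *Ddit3* and *Ddit4* with TMPyP4, *Sesn2* and *Ddit4* after *Rtel1* deletion, and *Trib3* after *Terf1* deletion. The share of all genes passing in these fits is not given, so nothing about the set is read from them. With 3 libraries a group, the SE of *Sesn2* was 0.23 with TMPyP4, against 0.0755 for *Atf4*.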
